A study of Homo sapiens with 6 samples.

Results

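The EGFR family of receptor tyrosine kinases was examined in PANC1 cells, a human pancreatic carcinoma line. The 10 genes were chosen by name and role, with earlier results of these data known. They are the receptors EGFR, ERBB2 and ERBB3, the ligands HBEGF, BTC, EREG, AREG and TGFA, and the inhibitors ERRFI1 and LRIG1. All 10 were found by Ensembl identifier among the 20461 protein-coding genes of the deposited table. After 24 h of growth, cultures received either 50 nM of the anticancer nucleoside gemcitabine or 0.1% DMSO as vehicle for 48 h, and RNA was sequenced from 2 biological replicates per condition. All samples come from this 1 cell line, and DNaseI-seq, which marks open chromatin, was done on 1 sample per condition. The question was which genes change expression in response to the drug.

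The receptors sit in the cell membrane and pair up when a ligand binds, which switches on their intracellular kinase domains and, through adaptors, the RAS-ERK and PI3K-AKT cascades. ERBB2 has no known ligand and acts as a partner for the others, while ERBB3 has very weak kinase activity of its own and binds neuregulins. The ligands are made as membrane proteins and are cut loose by ADAM proteases. ERRFI1 (also called MIG6) is induced by receptor signalling and inhibits the kinase domain from inside the cell, and LRIG1 is a membrane protein that promotes removal of the receptors.

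Upon gemcitabine treatment, the ligand gene HBEGF rose 2.79-fold and the feedback inhibitor gene ERRFI1 rose 1.67-fold, whereas for the receptor genes EGFR, ERBB2 and ERBB3 no change was called. LRIG1 rose 1.30-fold, past the test but below the fold required for a call. BTC and EREG were not separated from 0 change, and AREG and TGFA were too rarely counted to be tested. A call required an adjusted p under 0.05 (edgeR, quasi-likelihood, Benjamini-Hochberg over all genes tested), more than 1.5-fold change, a mean of at least 0.1 FPKM in 1 condition and a difference of at least 1 FPKM between the means. FPKM is the number of fragments scaled for transcript length and for the fragments mapped in the library. Of the 8 genes of the group that had at least 10 fragments over the 4 libraries and were tested, 2 were called higher and 0 lower. Over all 14854 genes tested, 5.69% were called higher and 4.43% lower. As the group was chosen with earlier results of these data known, this comparison is a description and no test. The median log2 fold change was 0.49 over the 8 genes and 0.0068 over all genes tested. The former falls between ERBB3 (0.48) and BTC (0.50), neither separated from 0 change, while EGFR stood at -0.08 and ERBB2 at 0.11.

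The libraries held 13194533 to 15766237 fragments on genes, so that 3 fragments, the most that a count of 0 allows, stand for 0.190 to 0.227 CPM (the fragments of a gene scaled to the library total), for counting error only. The replicates differed by more than sampling noise, by a chi-square per gene that averaged 2.17 for the vehicle pair and 5.16 for the gemcitabine pair. KRT7, KRT8, KRT18 and VIM were strongly expressed (5963 to 17660 fragments per library), while the epithelial markers KRT19, EPCAM and CDH1 had 4 to 94. The 4 fibroblast markers summed to 2307 to 2317 CPM in vehicle and 2431 to 2950 CPM in gemcitabine libraries, nearly all of it COL3A1, with PDGFRA at 0 to 0.699 fragments. The 4 leukocyte markers summed to 9.11 and 9.90 CPM in vehicle and 18.7 and 20.8 CPM in gemcitabine libraries, mostly CD68, with 0 fragments of CD3E and 2 to 9 of PTPRC in every library. The 2 endothelial markers found (CDH5 and VWF) summed to 0.528 and 0.761 CPM in vehicle and 2.41 and 2.58 CPM in gemcitabine libraries. Their part in the results was not tested. In bulk samples such as these, fewer cells of a type and less RNA per cell cannot be told apart.

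**Figure D1:**
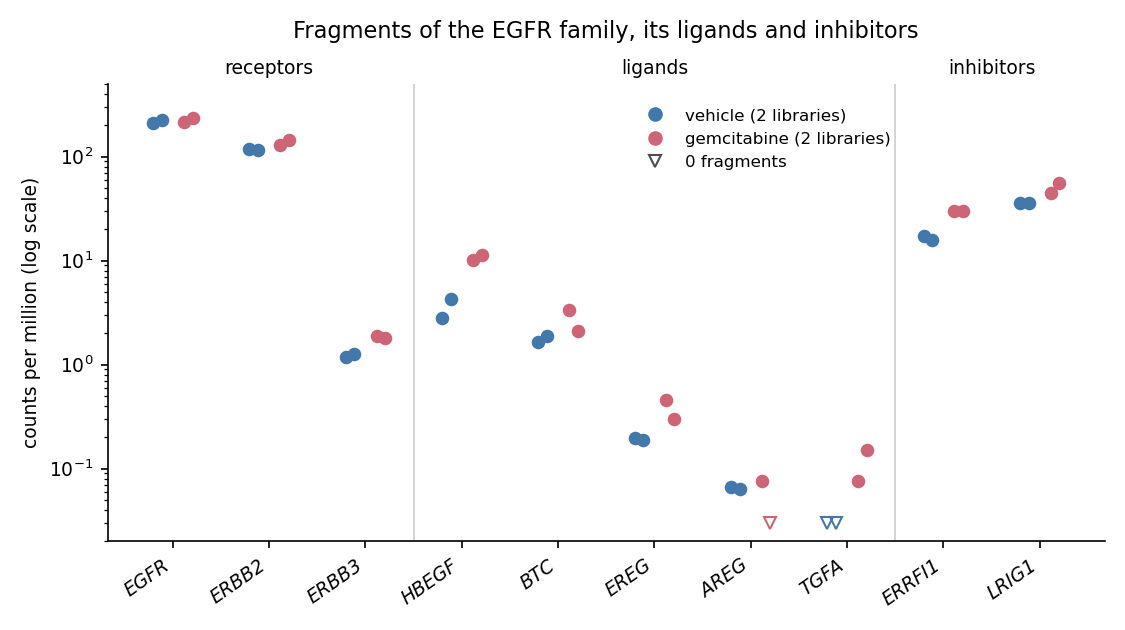
CPM (fragments scaled to the library total, log scale) of the 10 genes in each of the 2 vehicle and 2 gemcitabine libraries, 1 point per library, with open triangles for libraries with 0 fragments. HBEGF stood at 2.84 and 4.25 CPM in vehicle and at 10.1 and 11.3 CPM in gemcitabine libraries, while EGFR lay between 213 and 235 CPM in all 4.

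Levels between genes were compared per length, by mean FPKM. In vehicle libraries the order was ERBB2 (43.7 FPKM), EGFR (23.2), LRIG1 (6.98), ERRFI1 (5.78), ERBB3 (1.88), HBEGF (1.46), BTC (0.597), AREG (0.0791), EREG (0.0338) and TGFA, which was listed at 0. The values of ERBB3 and HBEGF overlapped between their libraries, and the other neighbours in this order did not. The receptors EGFR and ERBB2 thus stood above all 5 ligands in FPKM. In gemcitabine libraries ERBB2 (50.8 FPKM) and EGFR (23.9) still led. LRIG1 (10.0 FPKM) and ERRFI1 (9.83) overlapped there, and HBEGF (4.31) stood above ERBB3 (2.94) without overlap. Depth limits the lower end of this order, since AREG, EREG and TGFA rest on 0 to 6 fragments in each library.

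EGFR (ENSG00000146648), the founding member of the family, lies on chromosome 7 from 55086710 to 55279321 of hg19 (annotation of Gencode lifted to GRCh37). Its fragments numbered 3225 and 3577 under vehicle and 2828 and 3120 under gemcitabine. As a share of the library total these values overlapped between conditions. The log2 fold change was -0.08 (standard error 0.0728, 95% interval -0.23 to 0.08, adjusted p = 0.428). Its sign depended on the scaling and on 1 library. The value was 0.03 with library totals in place of the TMM factors used here. It was 0.0057 without gemcitabine library 1 and -0.16 without gemcitabine library 2.

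ERBB2 (ENSG00000141736, chromosome 17 from 37844167 to 37886679), the receptor without a ligand, had 1814 and 1845 fragments in vehicle and 1735 and 1912 in gemcitabine libraries. In CPM, both gemcitabine libraries (131 and 144 CPM) lay above both vehicle libraries (120 and 117 CPM). The log2 fold change was 0.11 (95% interval -0.04 to 0.26, adjusted p = 0.251) and did not pass the test. It passed with library totals (0.22, adjusted p = 0.0185). The log2 fold change was 0.19 without gemcitabine library 1 and 0.026 without gemcitabine library 2. In these 2 fits the spread between replicates came from the vehicle pair alone. Library totals moved the median log2 fold change of all genes from 0.0068 to 0.12, and changes under that scaling are to be read relative to this shift.

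ERBB3 (ENSG00000065361, chromosome 12 from 56470583 to 56497289), the receptor that works through its partners, was counted rarely, with 18.5 and 20 fragments in vehicle and 25 and 24 in gemcitabine libraries. Its log2 fold change was 0.48, with a wide 95% interval from -0.26 to 1.22 (adjusted p = 0.298). At this depth neither a fall to 0.835-fold nor a rise to 2.33-fold lies outside the interval. The FPKM of ERBB3 spread more than its fragments, at 3.21 and 0.549 in the vehicle libraries and 3.43 and 2.45 in the gemcitabine libraries, and here the conditions overlapped.

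HBEGF encodes heparin-binding EGF-like growth factor, a ligand of EGFR and ERBB4. The gene (ENSG00000113070) lies on chromosome 5 from 139712428 to 139726188, on the minus strand. Vehicle libraries held 43 and 67 of its fragments, gemcitabine libraries 133 and 150. Both gemcitabine libraries were far above both vehicle libraries, also in FPKM (1.23 and 1.69 against 4.04 and 4.57). The log2 fold change was 1.48 (standard error 0.203, 95% interval 1.04 to 1.91, adjusted p = 5.51e-05), and the rise ranked 535 among the 14854 genes tested. Dropping any single library kept the call, with values from 1.23 to 1.80. With limma on log2(FPKM + 1) of the same genes, where a fold change of a low gene is understated, it was 1.11. It missed the threshold there (adjusted p = 0.0511). With limma on log2(FPKM + 0.1) it was 1.51 and also missed the threshold (adjusted p = 0.0521). With log2(FPKM + 1) it passed when genes under a mean of 0.1 FPKM were left out.

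HBEGF was 1 of the 2 called genes, so the 250 bases before its RefSeq start site (GRCh37, chr5:139726189-139726438, minus strand, outside all annotated exons) are shown, with the GC box letters GGGCGG, read on either strand, in capitals.
HBEGF: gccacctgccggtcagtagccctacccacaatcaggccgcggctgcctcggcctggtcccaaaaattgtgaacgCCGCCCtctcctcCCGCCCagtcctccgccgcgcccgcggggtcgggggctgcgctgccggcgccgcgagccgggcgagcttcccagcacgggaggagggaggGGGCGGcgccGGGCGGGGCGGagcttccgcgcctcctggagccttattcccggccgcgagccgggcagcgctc
The stretch held GGGCGG 5 times. These letters stood at least once in 42.6% of 35116 RefSeq promoters of this length. The other motifs searched, also on both strands, were not found in it. The AP-1 letters TGANTCA stood in 6.57% of the promoters. The cAMP response element, TGACGTCA, stood in 1.65% of them. The TATA box letters TATAAA stood in 10.7% and the NF-kB motif in 1.73%. The last 2 of the 5 matches share 1 base.

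The other ligands had fewer fragments than HBEGF, and EREG, AREG and TGFA had at most 6 in any library. BTC (betacellulin, ENSG00000174808), which binds EGFR and ERBB4, had 25 and 30 fragments in vehicle and 44 and 28 in gemcitabine libraries. Only gemcitabine library 1 stood well apart, and the log2 fold change of 0.50 (95% interval -0.18 to 1.18, adjusted p = 0.235) fell to 0.16 without it. EREG (epiregulin, ENSG00000124882) had 3 and 3 fragments against 6 and 4, too few to separate a fall from a rise (log2 fold change 0.82, 95% interval -0.74 to 2.39, adjusted p = 0.403). AREG (amphiregulin, ENSG00000109321) had 1 and 1 fragments against 1 and 0, and TGFA (transforming growth factor alpha, ENSG00000163235) 0 and 0 against 1 and 2, all at or under the floor of 3 fragments, so no fold change is given. The table also lists AREGB, a near-identical copy of AREG between which the counting could split reads, at 0 fragments in every library, so the sum over both copies was the count of AREG alone.

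Of the ligand genes, 4 lie within 546 kb on chromosome 4, in the order EPGN, EREG, AREG and BTC. EPGN encodes epigen, an EGFR ligand that is not among the 10 genes, and ends 48.4 kb before EREG. It had 20 and 22 fragments in vehicle and 102 and 82 in gemcitabine libraries. On the log2 scale it rose by 2.24 (standard error 0.255, adjusted p = 1.04e-05), with no overlap between conditions, and stayed between 2.09 and 2.38 when any single library was dropped. EREG and AREG beside it had at most 6 fragments in any library.

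ERRFI1 (ENSG00000116285, chromosome 1 from 8064464 to 8086369, minus strand), the feedback inhibitor, was read at 261 and 250 fragments under vehicle and 396 and 395 under gemcitabine. The replicates were close and the conditions did not overlap, in fragments or in FPKM (6.24 and 5.32 against 10.4 and 9.26). The log2 fold change was 0.74 (95% interval 0.53 to 0.96, adjusted p = 4.65e-05), and it ranged from 0.69 to 0.82 when any single library was dropped. The lower end of the interval lies below the required fold of 1.5, which is 0.585 on the log2 scale. With limma on log2(FPKM + 1) of the same genes it was 0.68 and missed the threshold (adjusted p = 0.0771), and it passed when genes under a mean of 0.1 FPKM were left out.

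The 250 bases before the ERRFI1 start site (GRCh37, chr1:8086370-8086619, minus strand, outside all annotated exons) are shown because it was the other called gene, with GGGCGG in capitals.
ERRFI1: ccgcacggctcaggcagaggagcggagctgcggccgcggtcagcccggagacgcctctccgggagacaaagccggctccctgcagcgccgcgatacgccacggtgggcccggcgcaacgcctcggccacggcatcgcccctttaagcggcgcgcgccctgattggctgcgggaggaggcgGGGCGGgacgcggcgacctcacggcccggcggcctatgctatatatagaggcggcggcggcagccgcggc
GGGCGG stood there 1 time, against 5 in the stretch before HBEGF, and the other motifs searched were not found in either window. Only the letters given were searched, so variants such as the tatatata in the ERRFI1 stretch were not counted. RefSeq promoters of 9 of the 10 genes could be placed in GRCh37 by a single exact match.

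LRIG1 (ENSG00000144749, chromosome 3 from 66429221 to 66551687, minus strand) had 538 and 571 fragments in vehicle and 590 and 739 in gemcitabine libraries. In CPM, both gemcitabine libraries (44.7 and 55.7 CPM) lay above both vehicle libraries (35.5 and 36.2 CPM). The log2 fold change was 0.38 (standard error 0.103, 95% interval 0.16 to 0.60, adjusted p = 0.00986), so it passed the test and not the fold criterion. It did not hold the test threshold without vehicle library 1 (0.37, adjusted p = 0.129), without vehicle library 2 (0.39, adjusted p = 0.118) or without gemcitabine library 2 (0.19, adjusted p = 0.0792). Without gemcitabine library 1 it was 0.54.

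**Figure D2:**
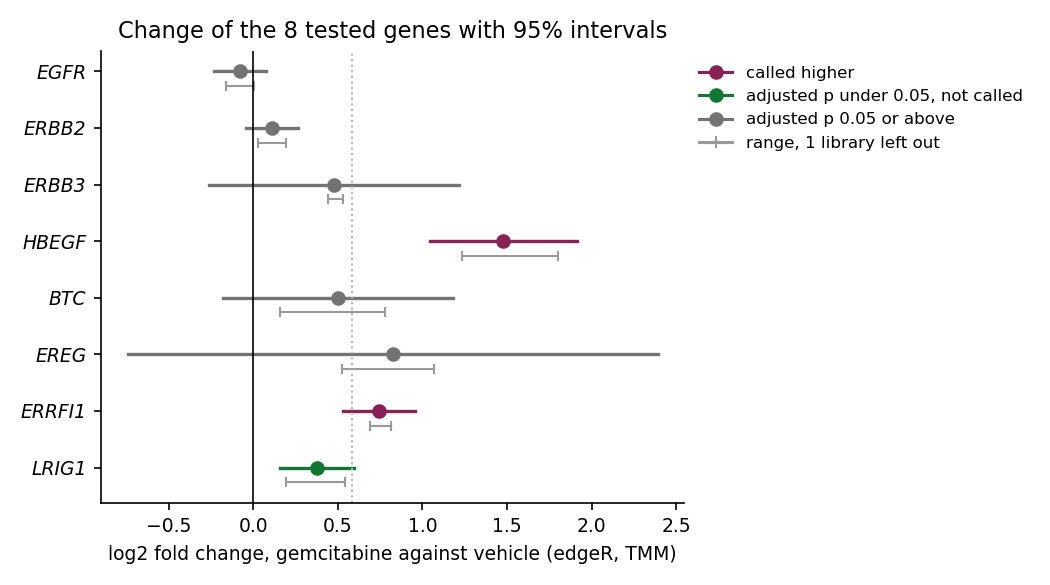
Log2 fold change of the 8 tested genes, gemcitabine against vehicle, from edgeR with TMM scaling, with 95% intervals (coloured lines) and the range with 1 of the 4 libraries left out (grey brackets); the dotted line marks the required fold of 1.5. The intervals of HBEGF (1.04 to 1.91), ERRFI1 (0.53 to 0.96) and LRIG1 (0.16 to 0.60) lie above 0, and that of EREG is the widest.

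By adjusted p alone, 3 of the 8 tested genes rose (HBEGF, ERRFI1 and LRIG1), against 18.5% of all genes tested (38.5% in either direction). The CPM of the conditions did not overlap for 7 of the 8, in each case with gemcitabine higher. CPM uses library totals without the TMM factors of the test. That scaling moved the median log2 fold change of all genes from 0.0068 to 0.12, towards gemcitabine. Such separation was common in these libraries, at 70.8% of all genes tested in either direction and 46.2% with gemcitabine higher.

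The rest of the pathway was read from 8 lists with 78 genes, all found in the table and 77 of them tested. Of these, 5 were called higher and 2 lower, where 5.69% and 4.43% of all genes tested were, and the median log2 fold change was 0.0015. With adjusted p alone, 18 rose and 11 fell (38.5% of all genes tested passed in either direction). The called genes stood in 3 lists: other family members, ligand release and ERK feedback.

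Among the 7 other receptors and ligands (ERBB4, EGF, EPGN and the neuregulins), EPGN was the 1 called gene, and the median log2 fold change was -0.02. NRG3, a neuregulin that binds ERBB4, had 6 and 6 fragments against 12 and 17 (log2 fold change 1.37, adjusted p = 0.0451) and a mean of at most 0.0168 FPKM, far too low for a call. ERBB4 itself, the receptor that HBEGF and BTC share with EGFR, had 139 and 123 fragments against 85 and 100 (-0.39, adjusted p = 0.0917).

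The 9 genes of ligand release include the proteases that shed the ligands and the rhomboid-like proteins that bring the protease ADAM17 to the cell surface. They also include the protease inhibitor gene TIMP3, which rose by 0.24 on the log2 scale (adjusted p = 0.0173) and was not called. RHBDF1 (iRhom1) rose from 417 and 418 fragments to 703 and 601 (log2 fold change 0.76, standard error 0.0922, adjusted p = 1.86e-05). Its relative RHBDF2 (iRhom2) fell from 516 and 500 to 292 and 293 (-0.68, standard error 0.0942, adjusted p = 5.66e-05). RHBDF2 missed the fold criterion with library totals (-0.57). With limma on FPKM neither was called in any of the 3 forms run, with log2 values of 0.64 to 0.67 for RHBDF1 and -0.50 to -0.47 for RHBDF2. RHBDL2, a rhomboid protease, had 16 and 23 fragments against 44 and 37 (1.16, adjusted p = 0.0101), and its call was lost with DESeq2, without vehicle library 1 and with limma on FPKM unless low genes were left out. The median of this list was -0.06. ADAM17 itself rose by 0.18 on the log2 scale (adjusted p = 0.0498), just inside the threshold, and was not called.

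No gene was called among the 10 adaptors, the 10 genes of the RAS-ERK cascade, the 10 genes of PI3K-AKT signalling, the 11 tested genes of receptor degradation and the 10 other negative regulators. By adjusted p alone, 2 adaptors rose and 1 fell, 1 RAS-ERK gene rose and 3 fell, and 1 PI3K-AKT gene rose and 1 fell. Over all genes tested, 18.5% rose and 38.5% passed in either direction, so passing genes were common in these libraries. The changes below are given as a description. The phosphatase gene PTPN11 fell by 0.39 and the adaptor gene NCK1 rose by 0.32 on the log2 scale. HRAS and the kinase gene ARAF fell by 0.33 and 0.26, and the regulatory subunit gene PIK3R3 rose by 0.38. In receptor degradation, which includes CBL, the ubiquitin ligase that marks EGFR for lysosomes, 0 genes rose and 0 fell by adjusted p. Of the other negative regulators 1 rose and 3 fell, among them LRIG3 (fell by 0.47), a relative of LRIG1, and the receptor phosphatase PTPRJ (fell by 0.32). These changes kept their sign with library totals. With limma on FPKM, HRAS turned positive (log2 fold change 0.0951 to 0.0998 in the 3 forms run), and its FPKM overlapped between conditions (61.7 and 27.1 against 42.0 and 45.7), so its direction depended on the unit. The other named genes of these lists kept their sign with limma, but the FPKM of ARAF, LRIG3 and PTPRJ also overlapped between conditions.

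The 10 genes of the ERK feedback list are targets or regulators of ERK signalling, and not all are inhibitors. Their median log2 fold change was 0.41, with 2 called higher and 1 lower, against 5.69% and 4.43% of all genes tested. By adjusted p alone 6 rose and 1 fell, where 18.5% of all genes tested rose and 38.5% passed in either direction. DUSP6, a phosphatase specific for ERK, went from 17 and 22 fragments to 63 and 76 (log2 fold change 1.94, standard error 0.279, adjusted p = 8.11e-05). DUSP5, a nuclear phosphatase of ERK, went from 245 and 252 to 506 and 515 (1.15, adjusted p = 5.97e-07). SPRY1, of the Sprouty inhibitors, went the other way, from 58 and 74 to 28 and 26 (-1.17, adjusted p = 0.00259), and its call was lost without vehicle library 2 and with limma on FPKM unless low genes were left out. Its relative SPRY4 had 2 and 6 fragments against 9 and 16 (1.73, adjusted p = 0.0395) and was not called.

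**Figure D3:**
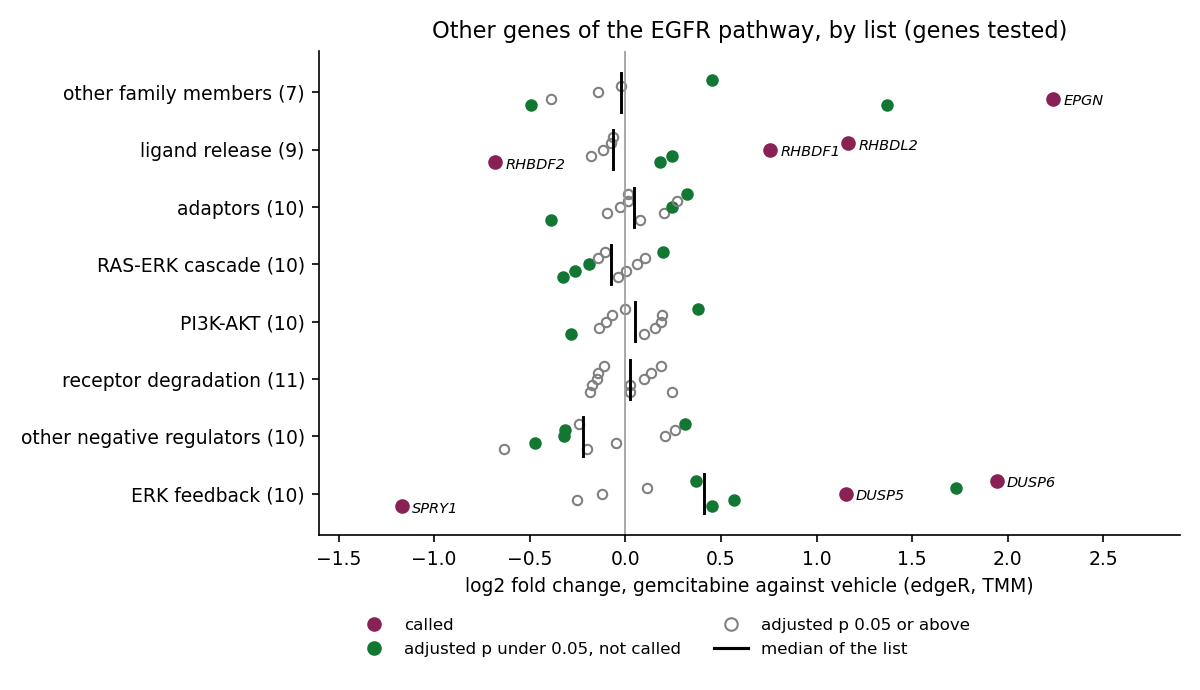
Log2 fold change (edgeR, TMM) of the 77 tested genes of the 8 pathway lists, 1 point per gene, with the number tested in brackets and a black bar at each list's median. The 7 called genes are named; the medians lie between -0.22 (other negative regulators) and 0.41 (ERK feedback).

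Likeness of pattern was measured by the Euclidean distance of 4 mean-centred log2 CPM values, scaled by TMM and with a small constant added. For each called gene, the 3 nearest genes were found among the 12602 genes averaging 1 CPM or more. For HBEGF these were OPRL1, the nociceptin receptor (distance 0.136, log2 fold change 1.71), DIRAS3, a RAS-like GTPase (0.143 and 1.95), and ZSWIM3 (0.149 and 1.63). For ERRFI1 they were ANPEP, aminopeptidase N (0.0247 and 0.73), USP11, a deubiquitinase (0.0248 and 0.74), and DOK4, a docking protein (0.0312 and 0.73). The likeness rests on 4 libraries only, and the constant shrinks changes of low genes such as DIRAS3 (0.330 and 0.634 CPM in vehicle libraries).

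DNaseI-seq peaks were called by the authors in each condition separately, with 9606 peaks in the vehicle and 10695 in the gemcitabine sample. With 1 sample per condition there is no test, and a peak found in 1 list only has no replicate check. Within 5 kb of an annotated start site, 0 of the 10 genes had a peak in the vehicle list and 3 (ERBB2, ERBB3 and LRIG1) in the gemcitabine list. Over 19619 genes with a name and a start site, the shares were 26.1% and 29.9%. No peak of the 3 genes reached a score of 100 (the score is that of the MACS peak caller, and both lists begin at 50).

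The called genes HBEGF and ERRFI1 had no peak within 5 kb of a start site in either list. Neither did EGFR, at 213 to 235 CPM, so a missing peak does not show closed chromatin here. For HBEGF the nearest peaks lay 31.4 kb (vehicle) and 31.3 kb (gemcitabine) from a start site. Within the gene bodies of the group lay 4 peaks of the vehicle list, of which 3 overlapped a gemcitabine peak. They were 2 peaks in an intron of EGFR and 1 in ERRFI1, and the fourth, in an intron of EREG (chr4:75240281-75240974), had no counterpart.

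The shared peaks of EGFR lie in an intron, at chr7:55132469-55134016 (score 157) and chr7:55141145-55142465 (score 57.4) in the vehicle list, in each case downstream of the canonical start. In the gemcitabine list they stand at chr7:55133045-55133857 (75.5) and chr7:55141463-55142369 (57.9). The shared peak of ERRFI1, at chr1:8064809-8065710 in the vehicle list (94.6) and chr1:8064674-8065393 in the gemcitabine list (87.2), lies in the last intron of 1 long annotated transcript, 6.08 kb beyond the end of the canonical transcript, and overlaps an exon of a long non-coding RNA on the opposite strand. Scores of separate lists depend on each sample's depth, which is unknown here, and were not compared.

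The central 300 bases of the overlap between the conditions are shown for these 3 regions (GRCh37), since they are the open chromatin common to both samples at EGFR and ERRFI1, with TGANTCA in capitals. The EGFR regions are chr7:55133302-55133601 and chr7:55141767-55142066 on the plus strand, and the ERRFI1 region is chr1:8064952-8065251 on the minus strand.
EGFR intron, region 1: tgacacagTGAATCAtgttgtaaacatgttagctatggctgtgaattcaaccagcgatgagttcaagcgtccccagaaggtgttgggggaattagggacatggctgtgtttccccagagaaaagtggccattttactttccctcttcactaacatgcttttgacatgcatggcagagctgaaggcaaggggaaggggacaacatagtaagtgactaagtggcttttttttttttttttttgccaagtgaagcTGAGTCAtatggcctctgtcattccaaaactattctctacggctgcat
EGFR intron, region 2: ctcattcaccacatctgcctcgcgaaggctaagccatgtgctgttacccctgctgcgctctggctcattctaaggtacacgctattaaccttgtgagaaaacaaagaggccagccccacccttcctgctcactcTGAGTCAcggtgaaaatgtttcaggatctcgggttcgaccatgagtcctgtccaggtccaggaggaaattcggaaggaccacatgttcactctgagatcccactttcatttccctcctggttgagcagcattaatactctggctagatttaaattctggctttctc
ERRFI1 region: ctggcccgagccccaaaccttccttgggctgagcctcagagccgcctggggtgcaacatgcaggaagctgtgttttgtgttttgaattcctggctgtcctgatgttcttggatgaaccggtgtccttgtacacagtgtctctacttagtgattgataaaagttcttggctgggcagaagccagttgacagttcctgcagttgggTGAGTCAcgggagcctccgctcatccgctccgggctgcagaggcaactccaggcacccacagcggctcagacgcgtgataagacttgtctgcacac
Each of the 3 stretches held TGANTCA, the first 2 times and the others 1 time each. Of all 5558 overlaps between the lists, 20.8% held these letters in their central 300 bases. The other motifs searched were not found in these stretches.

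At LRIG1 the gemcitabine peak (chr3:66551361-66551844, score 60.1) covers the start site. The 157 bases of it that lie before every annotated start (GRCh37, chr3:66551688-66551844, minus strand) are shown with GGGCGG in capitals, as the 1 peak over a start site that no other gene shares.
LRIG1: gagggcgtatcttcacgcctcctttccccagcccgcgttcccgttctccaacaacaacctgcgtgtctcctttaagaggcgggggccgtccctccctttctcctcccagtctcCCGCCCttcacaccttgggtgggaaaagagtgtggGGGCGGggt
GGGCGG stood there 2 times. The ERBB2 peak (chr17:37843791-37844800, score 84.6) covers the first of the gene's annotated starts and also a start of the neighbouring gene PGAP3. The middle of this peak lies 12.0 kb before the canonical start of ERBB2. Of the ERBB3 peaks, that at chr12:56472532-56473213 (73.1) lies 428 bases from a start site, and that at chr12:56497785-56498454 (73.5) lies outside the gene and covers a start of PA2G4.

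**Figure D4:**
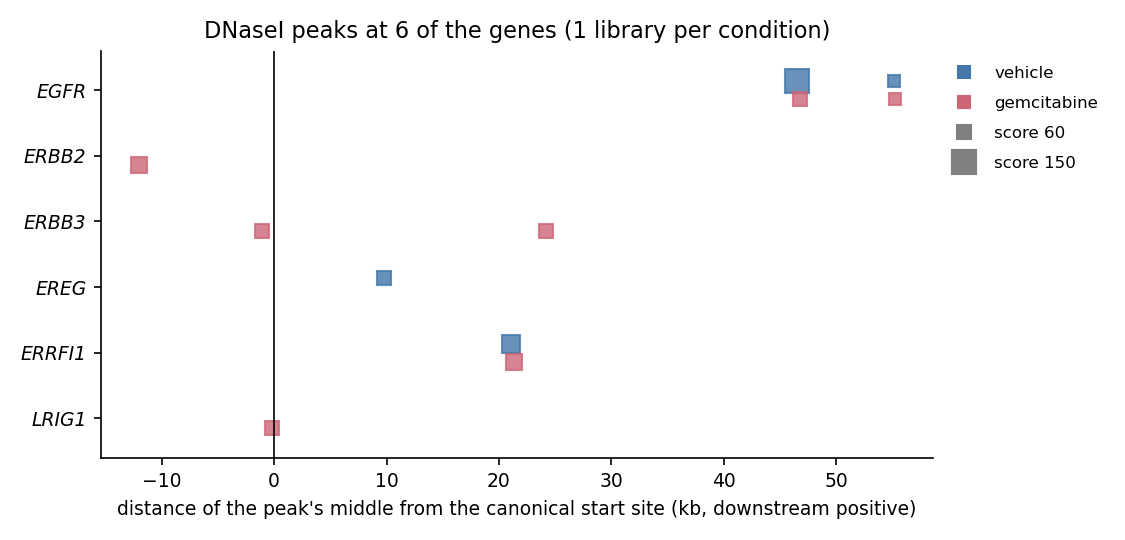
DNaseI peaks within the gene or 5 kb of a start site for the 6 of the 10 genes that had any, by the distance of the peak's middle from the canonical start site (kb) in the vehicle and gemcitabine samples; larger squares have higher scores. The 2 EGFR peaks and the ERRFI1 peak appear in both lists, those of ERBB2, ERBB3 and LRIG1 in the gemcitabine list and that of EREG in the vehicle list.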

How the data were processed

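RNA-seq of PANC1 cells was analysed in 2 vehicle and 2 gemcitabine libraries, and DNaseI-seq in 1 sample of each. Reads were mapped by the authors to hg19 (TopHat2 2.0.8) and assigned to protein-coding Gencode genes (Cuffdiff 2.0.2). The deposited table holds estimated counts (fragments, 86.8% of them whole) and FPKM, which Cuffdiff sums over isoforms of different length. How its library index relates to the labelled replicates is not known, so library numbers are names only. The deposited peak lists hold a MACS score (p-value cutoff 1e-05). The authors added ENCODE peaks of PANC1 to their own to raise sensitivity, and the ENCODE peaks were not used here.

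Estimated counts were rounded. Genes with at least 10 fragments in all were tested with edgeR 4.0.16 (TMM, quasi-likelihood, R 4.3.3), in place of Cuffdiff's test, and p-values were adjusted over all genes. Standard errors and 95% intervals were derived from the F statistic. Start sites came from Gencode lifted to GRCh37, and promoters from RefSeq (GRCh38.p14), placed in GRCh37 by exact match. The test was checked on simulated counts. Alternatives were DESeq2 1.42.0, other scalings and filters, limma 3.58.1 on log2(FPKM + 1) and log2(FPKM + 0.1), other call limits, each library left out, and other peak distances, scores and overlaps.

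The members and lists were chosen with earlier results of these data known. Named genes are the 10 members, called genes of the lists and up to 2 of each list with the largest change at an adjusted p under 0.05, of which 1 is not reported here. ERBB4, ADAM17, TIMP3, CBL and the marker genes were named after their values were seen. Protein sequences were not used here.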

Additional observations from a re-analysis of the deposited data

How the results depend on the processing

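The rises of HBEGF and ERRFI1 were called with DESeq2, with each edgeR scaling and filter, with limma on genes of at least 0.1 FPKM on average (filtered limma) and with any 1 library left out. With limma on log2(FPKM + 1) and log2(FPKM + 0.1) of all tested genes, HBEGF (1.11, adjusted p = 0.0511, and 1.51, 0.0521) and ERRFI1 (0.68, 0.0771, and 0.76, 0.0724) were not, so 0 of the 10 genes were called. LRIG1 lost significance with limma (0.45 and 0.50, filtered 0.45) and in 3 of 4 leave-one-out fits (0.19 to 0.54). EGFR changed sign with library totals (0.0313) and limma (0.0416 and 0.0431, filtered 0.0416), and spanned -0.16 to 0.0057 with 1 library left out. ERBB2 passed with library totals (0.22) and spanned 0.026 to 0.19 with 1 library left out. The cause was not tested.

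Over all genes, limma called 300 and 428 higher and 104 and 178 lower (filtered, 326 lower), library totals 417 lower, and adjusted p alone 2750 higher and 2975 lower. Adjusted p alone, higher and lower, gave 3 and 1 other family members, 4 and 1 genes of ligand release and 6 and 1 of ERK feedback. It gave 2 and 1 adaptors, 1 and 3 RAS-ERK genes, 1 and 1 PI3K-AKT genes and 1 and 3 other negative regulators. In ligand release, 1 was called higher with DESeq2, filtered limma and adjusted p under 0.01, 0 with limma at either pseudocount, and 1 to 2 with 1 library left out; 0 were called lower with library totals and limma. Filtered limma called 1 adaptor and 1 other negative regulator higher. In ERK feedback, 0 were called lower with limma at either pseudocount, and 0 to 1 with 1 library left out. With a peak score of at least 100, 0 of the 10 genes had a peak near a start in the gemcitabine list.

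No paired analysis was possible because the library index in the table could not be matched to the labelled replicate numbers. Leaving out a library leaves 1 sample in its group, which is then assumed to vary like the other group. Depth limits AREG, TGFA, EREG and ERBB3.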
